A study of Caenorhabditis elegans with 48 samples.

Results

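The 10 genes described here are genes of propionate breakdown in the nematode Caenorhabditis elegans, with acdh-2, a relative of acdh-1, counted among them. They were chosen by name for their place in the pathway, with earlier results of these data known. They are 10 of the 19454 genes counted in the mRNA-seq table. The propionate shunt is represented by 6 of them, acdh-1, acdh-2, ech-6, hach-1, hphd-1 and alh-8, and the vitamin B12-dependent route by 4, pcca-1, pccb-1, mce-1 and mmcm-1. All 10 passed the filter on low counts in every comparison and in both assays.

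Propionyl-CoA arises from the breakdown of branched-chain amino acids and odd-chain fatty acids, and propionate is toxic when it builds up. When vitamin B12 is at hand, propionyl-CoA is carboxylated and rearranged to succinyl-CoA by the B12-dependent route. When it is scarce, worms switch on the shunt, which oxidises propionyl-CoA by a path that does not need the vitamin. The shunt starts with ACDH-1, an acyl-CoA dehydrogenase whose gene is widely used as a reporter of low vitamin B12, and acdh-2 encodes a related acyl-CoA dehydrogenase.

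Polyadenylated mRNA (mRNA-seq) and ribosome footprints (Ribo-seq, the stretches of mRNA covered by translating ribosomes) were sequenced from worms labelled young adult, with 24 libraries per assay. A first experiment held Fed and Starved worms, with 6 libraries per group and assay. A second held worms on Empty_vector control RNAi, on RNAi against E02H1.1 and on RNAi against C27F2.4, with 4 libraries per group and assay. E02H1.1 and C27F2.4 are the worm relatives of the ribosomal RNA methyltransferases DIMT1 and BUD23. The labels give no strain, genotype, age in hours, length of starvation or bacterial food, and do not say whether libraries of a group came from separate cultures, so p-values measure only the spread between these libraries.

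Library totals ran from 19.2 to 22.8 M counts in mRNA-seq and from 3.91 to 11.7 M in Ribo-seq. Levels are given as CPM, counts per M counts after TMM scaling over the 24 libraries of an assay, and gene lengths were not used, so levels are compared between groups and not between genes. The targets checked the labels: E02H1.1 mRNA was 19.1 ± 1.63 CPM on its own RNAi against 67.7 ± 5.71 on Empty_vector, and C27F2.4 mRNA was 31.4 ± 2.11 against 62.0 ± 4.68 (SD, n = 4). The 6 vit yolk genes, markers of egg-laying adults, summed to 1.4 to 4.2 CPM in mRNA-seq. The 7 genes listed for the embryonic sheath and apical matrix summed to 5856 to 7784 CPM. Of these, dpy-17 alone stood at 2555 to 3460 CPM. These values go against the label young adult, and the stage of the worms was not tested. These are whole-animal samples, in which fewer cells of a type and less RNA per cell cannot be told apart.

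Most shunt genes stood at far higher levels in Fed than in Empty_vector worms, and the genes of the B12-dependent route stood at similar levels in both. The clearest case was acdh-1, at 873, 844, 805, 776, 762 and 760 CPM of mRNA in Fed libraries 1 to 6 and at 9.74, 8.88, 12.01 and 7.77 CPM in Empty_vector libraries A to D. Its lowest Fed library was far above its highest Empty_vector library, and its footprints were 1112 ± 26.2 (SD, n = 6) against 9.70 ± 0.816 CPM (SD, n = 4). No other gene of at least 5 CPM in either group differed as much, among 9867 genes in mRNA-seq (log2 ratio 6.39) and 9284 in Ribo-seq (6.84). Fed and Empty_vector belong to different experiments, so control group and experiment cannot be told apart, and this contrast, chosen after its values were seen, is a description with no test.

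hphd-1, the dehydrogenase that oxidises hydroxypropionate, stood at 328 CPM in Fed and 36.7 CPM in Empty_vector libraries, a log2 ratio of 3.16 in mRNA and 3.45 in footprints. acdh-2 stood at 187 against 30.9 CPM, a log2 ratio of 2.60 in mRNA and 3.53 in footprints. The hydratase gene ech-6 (402 against 112 CPM) and the hydrolase gene hach-1 (145 against 66.5 CPM) had smaller mRNA log2 ratios of 1.84 and 1.12. alh-8, the aldehyde dehydrogenase at the end of the shunt, had a log2 ratio of 0.84 in mRNA and 0.34 in footprints, where its libraries overlapped.

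A difference of at least 2-fold with no overlap between Fed and Empty_vector libraries was found for 5 of the 6 shunt genes in each assay, all higher in Fed, and for 0 of the 4 genes of the B12-dependent route. Over all genes of at least 5 CPM, 1.77% met this rule in mRNA-seq (1.35% higher in Fed) and 2.83% in Ribo-seq (1.1% higher in Fed). The log2 ratios of pcca-1, pccb-1, mce-1 and mmcm-1 lay between -0.35 and 0.10 in mRNA and between -0.25 and 0.07 in footprints. Summed over 6 genes, shunt mRNA was 2365 ± 96.8 CPM in Fed (SD, n = 6) and 534 ± 14.8 CPM in Empty_vector libraries (SD, n = 4). The sum over the 4 genes of the other route was 989 ± 37.4 and 1011 ± 25.5 CPM.

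**Figure D1:**
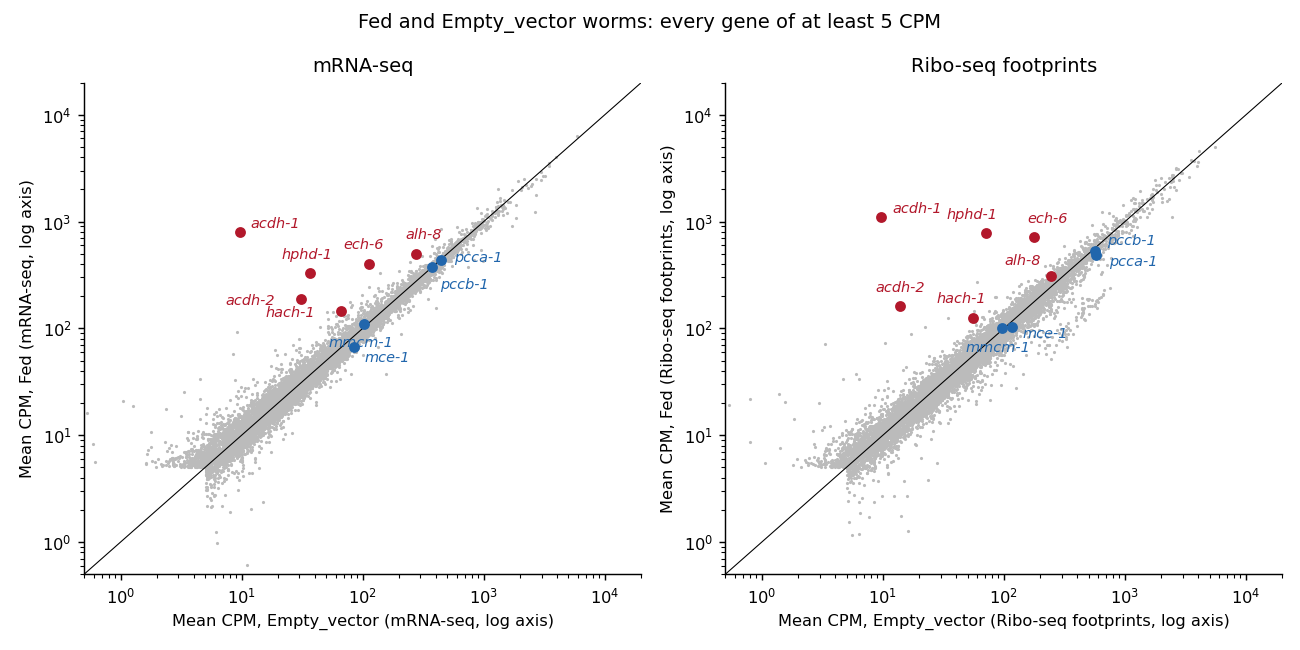
Mean CPM in Empty_vector libraries (horizontal, log axis) against mean CPM in Fed libraries (vertical, log axis), with one dot per gene of at least 5 CPM in either group, shunt genes in red, genes of the B12-dependent route in blue and equality as a line. acdh-1 lies farthest above the line in both assays, and the 4 blue genes lie near it.

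Some genes around these routes shared the difference between the experiments. Over all genes of at least 5 CPM, 1.35% were higher in Fed by at least 2-fold without overlap in mRNA-seq. In mRNA-seq, at least 2-fold without overlap was met by 1 of the 19 genes at this level of the methionine and S-adenosylmethionine cycle and vitamin B12 handling, the ABC transporter gene pmp-5 (92.0 against 9.08 CPM). It was met by 1 of 23 genes of branched-chain and odd-chain breakdown, ech-1.1 (33.1 against 8.77 CPM), which is related to the alpha subunit of the mitochondrial trifunctional protein. It was met by 1 of 8 transcription regulators, nhr-68 (129 against 60.3 CPM), a nuclear hormone receptor that is known to activate shunt genes in worms when propionate persists. Of the other acyl-CoA dehydrogenase genes 7 of 10 reached 5 CPM, and 0 of these 7 met it, their log2 ratios running from -0.46 to 0.65. In footprints 2 of 19 genes of the methionine cycle and vitamin B12 handling met it. So did 1 of 23 genes of branched-chain and odd-chain breakdown, 1 of 7 regulators and 0 of 7 other acyl-CoA dehydrogenase genes. Those that met it were higher in Fed, beside 1.1% of all genes.

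**Figure D2:**
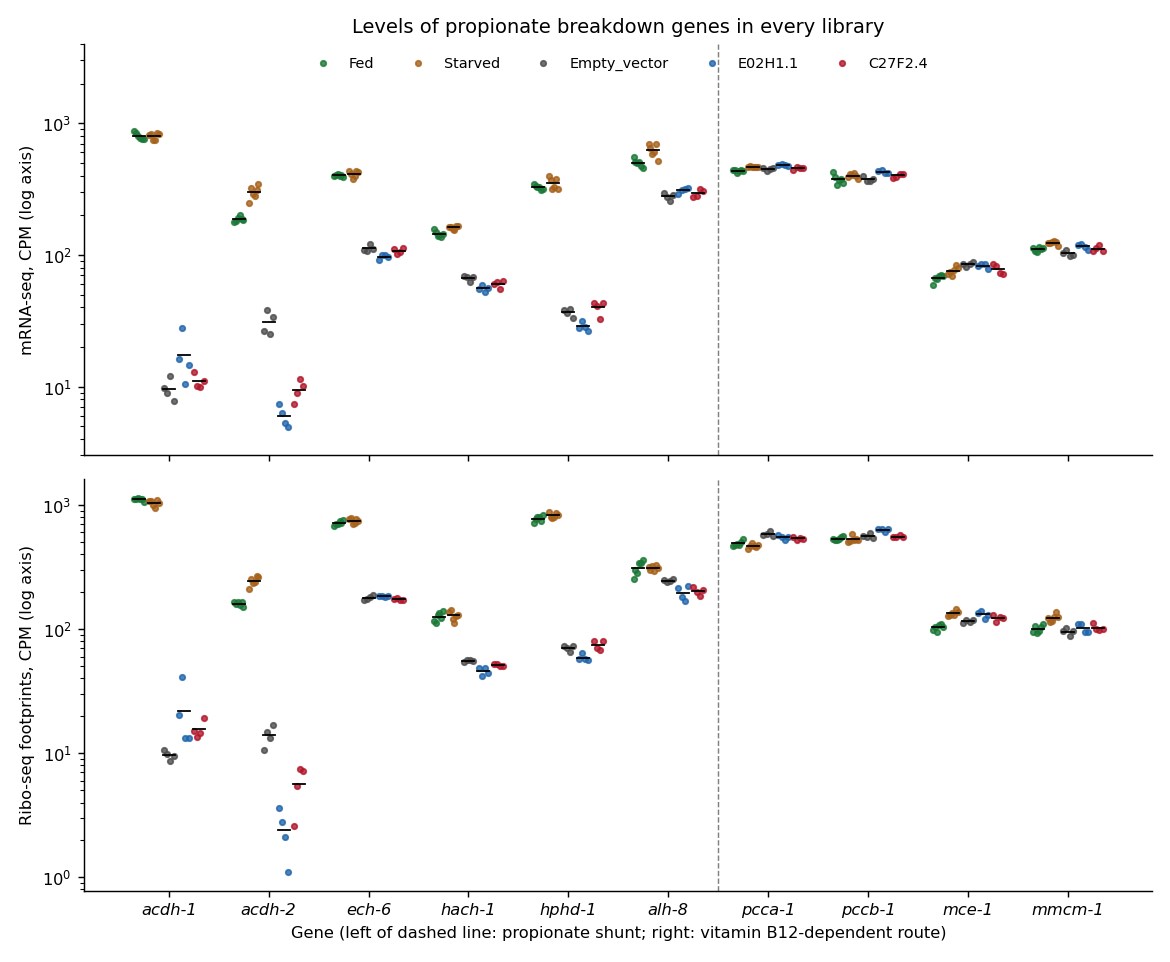
CPM of each of the 10 genes (log axes) in mRNA-seq and in Ribo-seq, with one point per library, libraries coloured by group and a bar at each group mean. Shunt genes sit higher in Fed and Starved than in the 3 RNAi groups, most of all acdh-1, except that footprints of alh-8 overlap, while the groups of each gene of the B12-dependent route lie close together.

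On starvation acdh-2 rose in both assays, while acdh-1 did not pass the edgeR test in either. acdh-2 mRNA was 179, 180, 192, 203, 187 and 184 CPM in Fed libraries 1 to 6 and 248, 322, 291, 280, 311 and 343 CPM in Starved libraries 1 to 6. Every Starved library was above every Fed library, with means of 299 ± 33.7 against 187 ± 8.9 CPM (SD, n = 6). The log2 fold change was 0.67 ± 0.06 (SE; edgeR adjusted p = 1.61e-06). Footprints of acdh-2 followed, at 244 ± 21.7 against 160 ± 5.48 CPM, again without overlap (0.61 ± 0.05, edgeR adjusted p = 7.32e-12).

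For acdh-1 the log2 fold change on starvation was -0.01 ± 0.04 in mRNA (SE, edgeR adjusted p = 0.899) and -0.10 ± 0.04 in footprints (edgeR adjusted p = 0.0897), and Fed and Starved libraries overlapped in both. The footprint value passed the threshold without Fed 6 (-0.12, adjusted p = 0.0369) and without Starved 5 (-0.12, adjusted p = 0.0476). With all libraries it passed in the Wald test of DESeq2 (-0.10, adjusted p = 0.0285).

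Of the 10 genes, 6 rose in mRNA on starvation and none fell, beside 11.8% of all genes tested that rose and 21.9% that changed. Their median log2 fold change was 0.13, against 0.00 for all genes tested. The others that rose were hach-1 (0.16 ± 0.04, adjusted p = 0.00208) and alh-8 in the shunt, and mce-1, mmcm-1 and pcca-1 in the B12-dependent route, by the same edgeR test. mmcm-1, the B12-dependent mutase, stood at 124 ± 3.98 against 110 ± 3.97 CPM with no overlap (0.16 ± 0.04, edgeR adjusted p = 0.00248), and mce-1, the epimerase before it, rose by 0.18 ± 0.05 (edgeR adjusted p = 0.00952). pcca-1, a subunit of propionyl-CoA carboxylase, rose by 0.09 ± 0.03 (edgeR adjusted p = 0.0351).

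The rise of pcca-1 was lost on leaving out any one of 8 of the 12 libraries (Fed 2, 3, 4 or 6, Starved 2, 3, 4 or 5), with values of 0.08 to 0.09 and edgeR adjusted p up to 0.0903. ech-6, hphd-1 and pccb-1 had mRNA log2 fold changes of 0.04, 0.10 and 0.09 that did not pass, though pccb-1 passed without Fed 1 (0.12, adjusted p = 0.0257) and hphd-1 passed narrowly without Starved 6 (0.13, adjusted p rounding to 0.05).

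In footprints 3 of the 10 rose on starvation, beside 13.9% of all genes tested that rose and 28.6% that changed. With acdh-2 these were the last enzymes of the B12-dependent route. mce-1 footprints were 134 ± 6.19 against 103 ± 5.43 CPM (SD, n = 6), with a log2 fold change of 0.38 ± 0.05 (edgeR adjusted p = 2.35e-07). mmcm-1 footprints were 123 ± 8.73 against 101 ± 6.94 CPM, with 0.30 ± 0.05 (edgeR adjusted p = 5.78e-05). For both genes no Starved library fell among the Fed libraries.

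alh-8 passed in mRNA and not in footprints. Its mRNA was 625 ± 67.3 CPM in Starved and 499 ± 34.6 CPM in Fed libraries (SD, n = 6; 0.32 ± 0.06, edgeR adjusted p = 0.00228), while its footprints were 312 ± 12.8 and 311 ± 41.0 CPM. Translational efficiency (TE), the change in footprints beyond the change in mRNA, had a log2 change of -0.32 ± 0.11 for alh-8 (edgeR adjusted p = 0.0731), and passed without Fed 1 (-0.41, adjusted p = 0.00316) and without Starved 6 (-0.38, adjusted p = 0.022). The edgeR test of TE called 0 of the 10, beside 6.29% of all genes tested. An unadjusted p under 0.05 was reached by 4 of the 10, and the share of all genes at that level was not counted. For pcca-1 (-0.16 ± 0.05, edgeR adjusted p = 0.0721) and mce-1 (0.20 ± 0.07, edgeR adjusted p = 0.0749) the Fed and Starved ratios did not overlap. The Wald test of DESeq2 called 2, alh-8 and pcca-1, and edgeR with library totals in place of TMM called mce-1 (0.24, adjusted p = 0.0272).

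Markers of tissues moved between Fed and Starved as well, and their part in these changes was not tested. The summed mRNA of 12 intestine markers was 1015 to 1123 CPM in Fed and 1096 to 1480 CPM in Starved libraries, and 3 of the 12 rose, beside 11.8% of all genes tested. Muscle markers moved more in mRNA, where 7 of 8 rose, with a median of 0.29 and sums of 2658 to 2864 CPM in Fed and 2823 to 4041 CPM in Starved libraries. In footprints the 8 germline markers tested all fell, with a median of -0.35, while 1558 of all 10589 genes tested fell. Germline footprint sums were 609.5 to 719.9 CPM in Fed and 457 to 551 CPM in Starved libraries. In mRNA 1 of 9 germline markers fell and 0 rose, with a median of -0.05 and overlapping sums. In footprints 2 of 8 muscle markers rose and 1 fell, with overlapping sums, and 1 of 11 intestine markers rose.

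RNAi against E02H1.1 lowered acdh-2 far more than any other of the 10 genes. acdh-2 mRNA was 26.4, 38.2, 25.1 and 34.0 CPM in Empty_vector libraries A to D and 7.44, 6.35, 5.25 and 4.91 CPM in E02H1.1 libraries A to D. The groups did not overlap, and the log2 fold change was -2.38 ± 0.16 (SE; edgeR adjusted p = 4e-10). Its footprints rested on few counts, 18, 17, 9 and 7 in E02H1.1 libraries A to D against 88, 108, 111 and 96 in Empty_vector libraries. They were 2.41 ± 1.07 against 13.9 ± 2.62 CPM (SD, n = 4), a log2 fold change of -2.52 ± 0.31 (edgeR adjusted p = 3.16e-05).

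acdh-1 moved the other way at a low level. Its mRNA was 16.2, 27.8, 10.4 and 14.5 CPM in E02H1.1 libraries A to D, and library C lay within the Empty_vector range. The log2 fold change was 0.84 ± 0.25 (edgeR adjusted p = 0.0188). Its footprints were 20.4, 41.4, 13.2 and 13.2 CPM against 10.7, 9.93, 8.72 and 9.49 CPM, with no overlap and a log2 fold change of 1.22 ± 0.36 (edgeR adjusted p = 0.0367).

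E02H1.1 library B was the highest for acdh-1 in both assays. Without it the values were 0.51 in mRNA and 0.68 in footprints, and both still passed. The footprint call of acdh-1 was lost without E02H1.1 A (1.25), Empty_vector A (1.27), Empty_vector B (1.23), Empty_vector C (1.16) or Empty_vector D (1.21), with edgeR adjusted p from 0.0546 to 0.115. The mRNA call was lost when only Empty_vector and E02H1.1 were fitted (0.84, edgeR adjusted p = 0.0596).

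**Figure D3:**
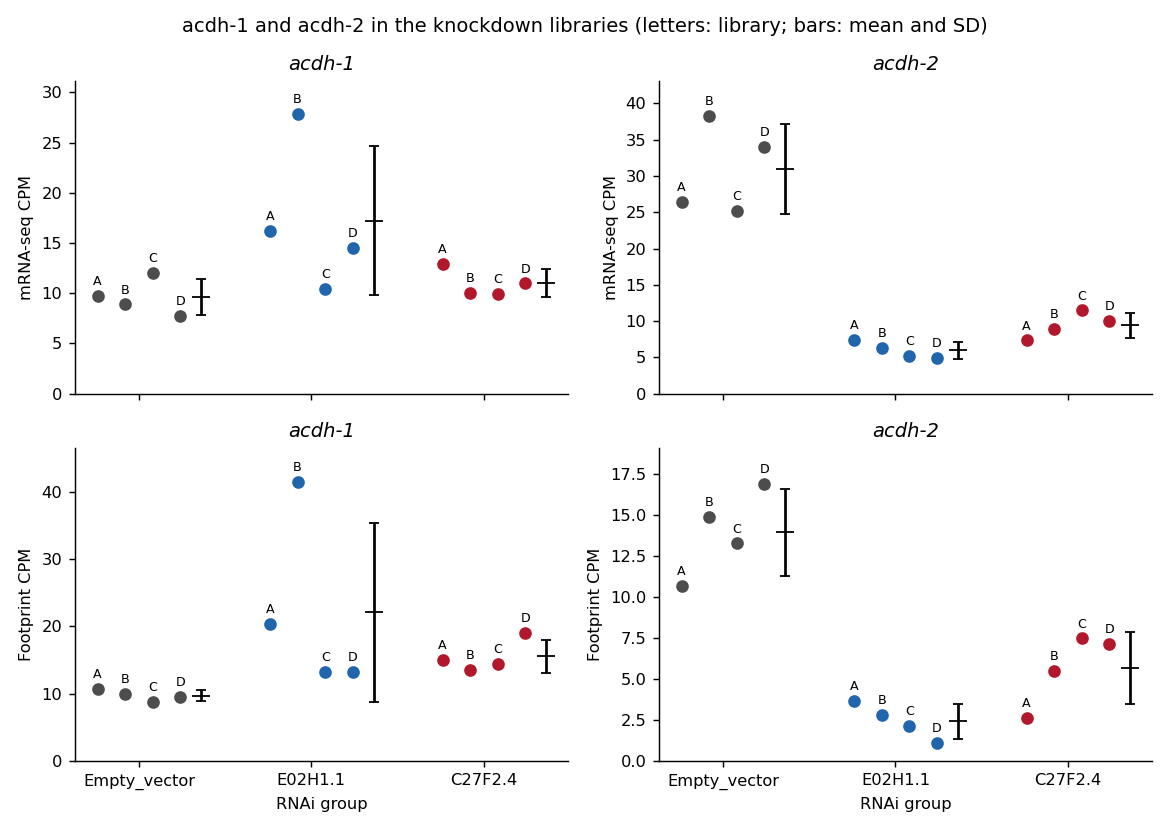
CPM of acdh-1 and acdh-2 in each Empty_vector, E02H1.1 and C27F2.4 library, in mRNA-seq and in Ribo-seq, with one lettered point per library and bars for the group mean and SD. acdh-2 is lower in every library of both RNAi groups, and E02H1.1 library B is the highest for acdh-1.

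Of the 10 genes, 9 passed the test in mRNA on E02H1.1 RNAi, 5 higher and 4 lower, in a comparison in which 39.5% of all genes tested passed (19.9% higher and 19.6% lower). Their median log2 fold change was 0.03, against -0.01 for all genes tested. In the shunt, hphd-1 fell from 36.7 ± 2.53 to 28.6 ± 2.26 CPM (SD, n = 4; -0.36 ± 0.09, edgeR adjusted p = 0.00165), hach-1 fell by 0.26 ± 0.06 and ech-6 fell by 0.21 ± 0.05 on the log2 scale (edgeR adjusted p = 0.00181 and 0.00189). In the other route, pccb-1, the second carboxylase subunit, rose from 376 ± 16.3 to 429 ± 10.9 CPM (0.19 ± 0.04, edgeR adjusted p = 0.00107).

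Smaller rises in mRNA were those of mmcm-1 (0.17 ± 0.05), alh-8 (0.16 ± 0.05) and pcca-1 (0.11 ± 0.04), with edgeR adjusted p of 0.00957, 0.0156 and 0.0269. Each call was lost in at least 1 fit that left a library out, with values near those of the full fit. The call was lost for mmcm-1 without E02H1.1 B (0.14), for alh-8 without E02H1.1 C (0.14) or Empty_vector C (0.12), and for pcca-1 without E02H1.1 B (0.10), E02H1.1 C (0.10) or Empty_vector B (0.09). mce-1 had a log2 fold change of -0.04 ± 0.06 (edgeR adjusted p = 0.615).

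In footprints 7 of the 10 passed, 3 higher and 4 lower, beside 20% of all genes tested (10.7% higher and 9.23% lower). hach-1 fell from 55.6 ± 1.19 to 45.8 ± 3.25 CPM (SD, n = 4; -0.28 ± 0.07, edgeR adjusted p = 0.00447), and hphd-1 fell by 0.26 ± 0.07 (edgeR adjusted p = 0.0142). pccb-1 rose from 564 ± 22.8 to 628 ± 18.8 CPM (0.16 ± 0.04, edgeR adjusted p = 0.0119), and mce-1 rose by 0.20 ± 0.06 (edgeR adjusted p = 0.015). Without E02H1.1 B neither rise passed (0.14 for pccb-1 and 0.15 for mce-1), and that of mce-1 also failed without E02H1.1 A (0.18). ech-6, pcca-1 and mmcm-1 had values of 0.05, -0.07 and 0.11 that did not pass.

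alh-8 went in opposite directions in the 2 assays on E02H1.1 RNAi. Its footprints were 249, 237, 245 and 252 CPM in Empty_vector libraries A to D and 212, 182, 167 and 223 CPM in E02H1.1 libraries A to D. Every E02H1.1 library was below every Empty_vector library, with a log2 fold change of -0.32 ± 0.07 (edgeR adjusted p = 0.00267). The TE of alh-8 fell by 0.48 ± 0.09 on the log2 scale (edgeR adjusted p = 0.00122).

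TE changed for 4 of the 10 genes on E02H1.1 RNAi, beside 10.8% of all genes tested. It rose for ech-6 (0.26 ± 0.06, edgeR adjusted p = 0.00856), whose mRNA fell and whose footprint value did not pass. It fell for pcca-1 (-0.18 ± 0.05, adjusted p = 0.0284) and rose for mce-1 (0.23 ± 0.08, adjusted p = 0.0479), by the same edgeR test. The call for pcca-1 was lost without library E02H1.1 B (-0.18), E02H1.1 C (-0.15), Empty_vector B (-0.16) or Empty_vector C (-0.15). That for mce-1 was lost without E02H1.1 A (0.21), B (0.21) or D (0.20) or without Empty_vector A (0.22), B (0.27), C (0.22) or D (0.23). The TE of acdh-2 had a log2 change of -0.15 ± 0.42 (edgeR adjusted p = 0.866), with a 95% interval of -0.97 to 0.67.

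On C27F2.4 RNAi acdh-2 fell in both assays, the one gene of the 10 to pass in both. acdh-2 mRNA was 7.35, 8.88, 11.5 and 10.05 CPM in C27F2.4 libraries A to D, all below the lowest Empty_vector library. The log2 fold change was -1.71 ± 0.15 (SE; edgeR adjusted p = 1.01e-07). Footprints were 5.66 ± 2.22 against 13.9 ± 2.62 CPM (SD, n = 4; -1.24 ± 0.23, edgeR adjusted p = 0.00352), from 22, 40, 74 and 84 counts. acdh-2 was the one gene called of the 10 in mRNA, beside 13.7% of all genes tested (5.56% lower). An unadjusted edgeR p under 0.05 was reached by 5 of the 10, and the share of all genes at that level was not counted. E02H1.1 and C27F2.4 share the Empty_vector libraries, so the lower acdh-2 of both rests on the same 4 controls.

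In footprints 2 of the 10 passed on C27F2.4 RNAi, beside 7.08% of all genes tested (2.11% lower), and both were lower: acdh-2 and alh-8. alh-8 footprints were 217, 197, 185 and 206 CPM, each below the Empty_vector libraries, with a log2 fold change of -0.29 ± 0.07 (edgeR adjusted p = 0.0105). Its TE was the one called of the 10, beside 0.877% of all genes tested (-0.37 ± 0.09, edgeR adjusted p = 0.0453). That call was lost without any one of Empty_vector A, B, C and D or C27F2.4 B, C and D, with values of -0.39 to -0.28 and adjusted p up to 0.24.

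acdh-1 footprints were 15.1, 13.5, 14.4 and 19.1 CPM on C27F2.4 RNAi, above all 4 Empty_vector libraries, but the log2 fold change of 0.69 ± 0.35 did not pass (edgeR adjusted p = 0.303). It passed when only C27F2.4 and Empty_vector libraries were fitted (0.69, edgeR adjusted p = 0.00614), a fit that leaves out the spread of the E02H1.1 libraries. In mRNA the value was 0.20 ± 0.26 (edgeR adjusted p = 0.677).

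Tissue markers also moved on both RNAi treatments, and their part in these changes was not tested. The 12 intestine genes summed to 718 to 849 CPM of mRNA in Empty_vector, 969 to 1089 in E02H1.1 and 883 to 1084 CPM in C27F2.4 libraries. Of the 12, 6 rose and 2 fell on E02H1.1 RNAi, and 7 rose on C27F2.4 RNAi, in mRNA. In footprints 2 and 1 of 11 rose, and the sums of Empty_vector (1120.4 to 1304 CPM) and E02H1.1 libraries (1149 to 1305 CPM) overlapped. Muscle markers rose in mRNA for 7 of 8 on E02H1.1 and 6 of 8 on C27F2.4 RNAi. Neuron markers rose for 6 of 8 (1 fell) and 4 of 8. In mRNA 19.9% and 8.11% of all genes tested rose. In footprints 4 and 2 of 8 muscle markers and 3 and 1 of 8 neuron markers rose. Of all 10736 genes tested in footprints, 1154 and 533 rose. Of germline markers 4 of 9 fell in mRNA and 2 of 8 in footprints on E02H1.1 RNAi, and 0 rose. Over all genes tested 19.6% and 9.23% fell there. On C27F2.4 RNAi 0 germline markers passed in either assay.

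**Figure D4:**
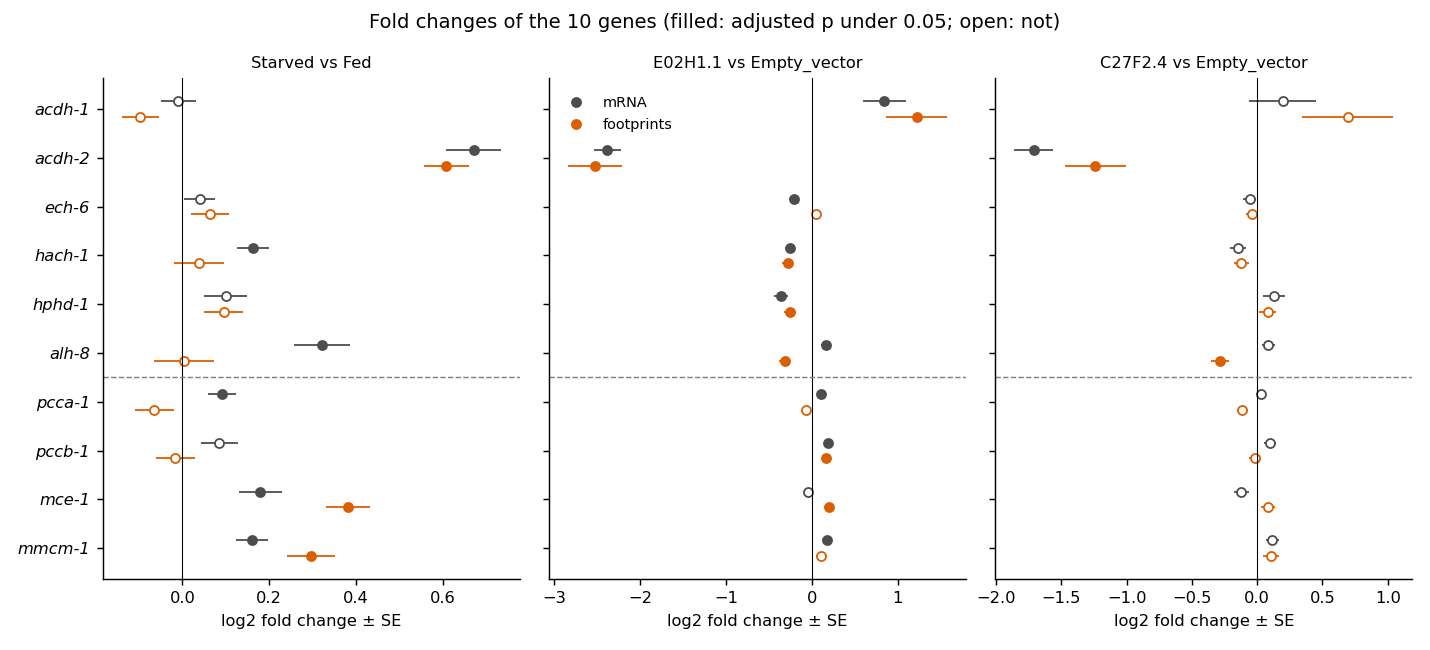
Log2 fold change of each of the 10 genes with its SE as bars, in mRNA (grey) and footprints (orange), for Starved against Fed and for each RNAi against Empty_vector, with filled points for an adjusted p under 0.05 and a scale of its own in each panel. acdh-2 lies above 0 on starvation and below 0 on both RNAi treatments, and the footprints of alh-8 lie below 0 on both RNAi treatments.

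Set directly against C27F2.4, E02H1.1 RNAi gave lower hphd-1, the clearest difference between the RNAi treatments among the 10. hphd-1 mRNA was 28.1, 31.7, 28.5 and 26.2 CPM in E02H1.1 and 43.1, 40.9, 32.8 and 43.1 CPM in C27F2.4 libraries A to D, with no overlap. The log2 difference was -0.49 ± 0.09 (SE; edgeR adjusted p = 0.00233). Its footprints were 58.8 ± 3.95 against 74.7 ± 6.22 CPM (SD, n = 4; -0.34 ± 0.07, edgeR adjusted p = 0.0119), a call lost without C27F2.4 D (-0.30) or E02H1.1 D (-0.31).

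In mRNA 2 of the 10 passed in this comparison, beside 3.26% of all genes tested. The other was acdh-2, lower on E02H1.1 RNAi by a log2 difference of -0.66 ± 0.17 (edgeR adjusted p = 0.0314), with overlapping libraries. That call was lost without C27F2.4 B (-0.69), C (-0.56) or D (-0.63) or without E02H1.1 B (-0.70), C (-0.61) or D (-0.57). In footprints 2 of the 10 passed, beside 1.25% of all genes tested: hphd-1 and pccb-1 (0.18 ± 0.04, edgeR adjusted p = 0.0376). The pccb-1 call was lost without C27F2.4 B (0.17), C (0.18) or D (0.18) or without E02H1.1 A (0.18), B (0.17) or D (0.18). The footprint difference of acdh-2 was -1.28 ± 0.35 (edgeR adjusted p = 0.0834), and passed with all libraries in the Wald test of DESeq2 (-1.26, adjusted p = 0.00661) and, in edgeR, without C27F2.4 A (-1.51, adjusted p = 0.00111). In TE edgeR called 0 of the 10, beside 0.0467% of all genes tested. There 1 gene, ech-6, had an unadjusted p under 0.05, and DESeq2 called it. The share of all genes at that unadjusted level was not counted.

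Across all groups the shunt genes differed in footprints counted per mRNA count. The stretch of each gene that was counted in either assay is not given, so ranks between genes describe these counts only. Fed and Starved belong to another experiment than the RNAi groups, so group and experiment cannot be told apart between them. The handling of reads shared by acdh-1 and acdh-2 is not given either. This ratio of footprint CPM to mRNA CPM was 2.36 ± 0.188 for hphd-1 in Fed libraries (SD, n = 6), above 97.2% of 8962 genes, and 1.94 in Empty_vector libraries. It was 1.77 for ech-6 in Fed libraries. For acdh-2 the ratio was 0.858 in Fed and 0.819 in Starved libraries, and 0.454, 0.390 and 0.582 in Empty_vector, E02H1.1 and C27F2.4 libraries. For alh-8 it was 0.631 in Fed, 0.504 in Starved, 0.887 in Empty_vector, 0.632 in E02H1.1 and 0.689 in C27F2.4 libraries.

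**Figure D5:**
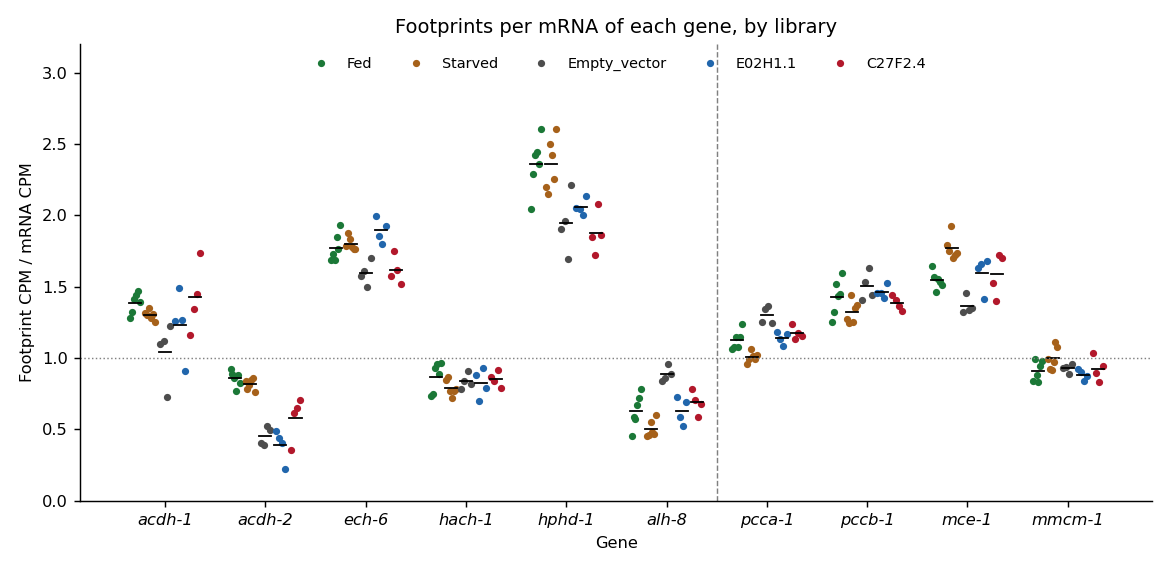
Footprint CPM divided by mRNA CPM of each gene in each library (one point per library, coloured by group, with a bar at the group mean), for the shunt genes left of the dashed line and the B12-dependent route right of it. hphd-1 has the highest mean ratio in every group, and alh-8 is lower in E02H1.1 and C27F2.4 than in Empty_vector libraries.

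Genes that feed propionyl-CoA or belong to related cycles were counted in the same fits. On starvation 9 of 24 tested genes of branched-chain and odd-chain breakdown rose in mRNA and 1 fell, with a median of 0.11. Of 20 tested genes of the methionine cycle and vitamin B12 handling 8 rose and 2 fell, with a median of 0.08. Over all genes tested 11.8% rose and 21.9% changed, with a median of 0.00. In footprints 6 of 23 and 2 of 19 of these genes rose and 3 and 5 fell, beside 13.9% of all genes that rose and 28.6% that changed. Among the former, ech-1.1 fell in mRNA (-0.32 ± 0.08, edgeR adjusted p = 0.0041) and in footprints (-0.46 ± 0.07, edgeR adjusted p = 3.48e-06). Among the latter, mmaa-1, which is related to a human gene for handling the vitamin B12 of the mutase, rose in mRNA (0.28 ± 0.04, edgeR adjusted p = 3.13e-05). Of the 8 regulators, 0 rose and 1 fell, nhr-68 (-0.16 ± 0.04, edgeR adjusted p = 0.00118).

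On E02H1.1 RNAi, where 19.9% of all genes tested rose and 19.6% fell in mRNA, 1 of 25 tested genes of branched-chain and odd-chain breakdown rose and 6 fell. The fall of ech-1.1 was the largest of these (-1.01 ± 0.15, edgeR adjusted p = 7.29e-06), and it also fell on C27F2.4 RNAi (-1.07 ± 0.15, edgeR adjusted p = 1.59e-05). Of 8 other acyl-CoA dehydrogenase genes tested, 1 rose and 5 fell on E02H1.1 RNAi, with a median of -0.14 against -0.01 for all genes tested, and acdh-6 was the one that rose (0.63 ± 0.15, edgeR adjusted p = 0.00296). sams-1, an S-adenosylmethionine synthetase, rose on E02H1.1 (0.27 ± 0.06, adjusted p = 0.00135) and on C27F2.4 RNAi (0.28 ± 0.06, adjusted p = 0.00355), by the same edgeR test. Of 20 tested genes of its list, the methionine cycle and vitamin B12 handling, 1 rose and 3 fell in mRNA on E02H1.1 RNAi, with a median of -0.08. In footprints 1 of 19 rose and 4 fell there, beside 10.7% and 9.23% of all genes tested. On C27F2.4 RNAi 2 of 20 rose and 0 fell in mRNA, beside 8.11% and 5.56% of all genes tested. Among regulators, mdt-15, a Mediator subunit, rose in mRNA on both (0.25 ± 0.04 and 0.13 ± 0.04) and fell in footprints on both (-0.17 ± 0.05 and -0.17 ± 0.04).

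The genes whose mRNA ran most like acdh-2 over the 24 libraries, after the mean of each experiment was taken off, were C09B8.4 (Pearson r = 0.95), nhr-12 (0.92), trap-4 (0.92), aps-1 (0.91) and cyp-13B1 (0.91), among 8524 genes. These r describe libraries that share groups, and carry no test. C09B8.4 stood at 63.4 CPM in Fed, 77.7 in Starved, 18.8 in Empty_vector, 6.98 in E02H1.1 and 9.52 CPM in C27F2.4 libraries. For acdh-1 the nearest were lim-7 (0.77), wrt-8 (0.75), ZK265.7 (0.73), acy-3 (0.72) and Y51H4A.24 (0.72). acdh-1 and acdh-2 had r = -0.56 with each other, and the carboxylase subunits pcca-1 and pccb-1 had r = 0.80.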

How the data were processed

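Counts per gene were deposited by the authors as whole numbers with no scaling, in one table per assay. The submitters' processing notes name cutadapt, a trimmer of adapters. The aligner, counting tool, genome build and handling of reads shared by related genes such as acdh-1 and acdh-2 are not given. Every gene of the Ribo-seq table reached 10 counts in at least 13 libraries. A deposited table of TE was not used.

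Each experiment and assay was fitted on all genes with edgeR 4.0.16 in R 4.3.3 (filterByExpr, TMM, robust quasi-likelihood test, two-sided, Benjamini-Hochberg adjustment, threshold 0.05). The 3 RNAi groups were fitted together. For TE, 1 model of both assays gave the assay-by-group interaction. The SE is the log2 fold change over the square root of F. Alternatives were DESeq2 1.42.0, other normalizations and filters, a block, an added fold of 1.5, 2 groups only, and each library left out. The steps were tested on simulated data.

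The 10 genes and the lists were chosen with earlier results of these data known. Named genes outside the 10 are the targets, up to 3 per list and comparison with the largest change past the threshold, and the 5 nearest patterns of acdh-1 and acdh-2. Sequences were not used here.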

Additional observations from a re-analysis of the deposited data

Results flagged for a closer look

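In 100 combinations of gene, assay and group, 2 held a library whose gap to the nearest other was wide for the range of its group by Dixon's criterion, where chance alone gives about 1 in 20. acdh-1 footprints in Fed 6 were 1060 CPM, below the other 5 Fed libraries at 1115 to 1136 CPM. pccb-1 footprints in C27F2.4 C were 567 CPM, above the other 3 at 552.2 to 552.6 CPM.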

How the results depend on the processing

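Of 120 values tested (10 genes, 4 comparisons, 3 measures), 37 passed the threshold. Of these, 23 passed in the same direction under every alternative fit, not counting the added fold of 1.5. Among these fits, 14 of the calls were lost in at least 1, 13 others were gained in at least 1, and 0 reversed. An added fold of 1.5 left 1 of 6 calls in Starved mRNA, 1 of 3 in Starved footprints, 2 of 9 in E02H1.1 mRNA, 2 of 7 in E02H1.1 footprints, 0 of 4 in E02H1.1 TE, 1 of 2 in C27F2.4 footprints and 0 of 1 in C27F2.4 TE. For E02H1.1 against C27F2.4 it left 1 of 2 in mRNA and 0 of 2 in footprints. The Wald test of DESeq2 called 2 genes in C27F2.4 TE, 2 in Starved TE and 1 in the TE of E02H1.1 against C27F2.4. Library totals without TMM called 1 in Starved TE. Leaving out 1 library at a time gave 0 to 1 calls in C27F2.4 TE, 2 to 3 in E02H1.1 TE and 0 to 1 in Starved TE, and for E02H1.1 against C27F2.4 1 to 2 in mRNA and 0 to 3 in footprints. The cause was not tested. Leaving out Starved 1 and Starved 5 together, chosen after seeing the data, gave 6, 4 and 0 calls in mRNA, footprints and TE.

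Libraries of the same number or letter did not all vary together. The correlation of their deviations from the group means ran from -0.29 to -0.03 in Starved and Fed footprints and from -0.09 to 0.10 in mRNA. It passed 0.1 in 1 or 2 of 4 pairs in each RNAi comparison. The C libraries were among these in each comparison and assay, at 0.30 to 0.51. What the C libraries share was not tested. A replicate block gave 5 calls in Starved mRNA and 3 in footprints, 8 and 6 for E02H1.1, 1 and 2 for C27F2.4, and 3 and 3 for E02H1.1 against C27F2.4. It lost both acdh-1 calls on E02H1.1 RNAi (mRNA 0.80, edgeR adjusted p = 0.0597; footprints 1.17, adjusted p = 0.0731) and pcca-1 in Starved mRNA (0.09, adjusted p = 0.0546). For E02H1.1 against C27F2.4 it gained acdh-2 in footprints (-1.27, adjusted p = 0.0299) and ech-6 in mRNA (-0.15, adjusted p = 0.0323). The mRNA-seq and Ribo-seq libraries of one name correlated from -0.02 to 0.65, over 0.1 in 15 of 24. The labels do not say whether libraries of one name came from one culture. A block pairing the libraries of one name gave 2 calls in Starved TE, 4 in E02H1.1 TE, 1 in C27F2.4 TE and 1 for E02H1.1 against C27F2.4. The calls in Starved TE were pcca-1 (-0.16, edgeR adjusted p = 0.0351) and mce-1 (0.20, adjusted p = 0.0168), and the one for E02H1.1 against C27F2.4 was ech-6 (0.24, adjusted p = 0.0145). In C27F2.4 TE alh-8 was lost (-0.37, adjusted p = 0.0565) and mce-1 gained (0.21, adjusted p = 0.0434). Footprints of acdh-2 on RNAi rest on 7 to 111 counts a library, which limits their precision and that of their TE.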

Other observations

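Summed over its 4 genes, the B12-dependent route stood at 1110 ± 24.2 CPM of mRNA in E02H1.1 and 1046 ± 21.3 CPM in C27F2.4 libraries (SD, n = 4), and at 1064 ± 17.2 CPM in Starved libraries (SD, n = 6). The shunt sum was 515 ± 17.8, 522 ± 19.2 and 2653 ± 141 CPM in the same groups. cyp-13B1, one of the genes nearest to acdh-2 in pattern, stood at 50.9 CPM in Fed, 88.9 in Starved, 66.7 in Empty_vector, 27.7 in E02H1.1 and 29.0 CPM in C27F2.4 libraries. It was chosen for moving like acdh-2 within the experiments, so that likeness is no separate result. Its Empty_vector level was above its Fed level, unlike that of acdh-2.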
